A study of Arabidopsis thaliana with 32 samples.

Results

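Seedlings that received low R/FR light and warmth at the same time for 24 h (30FR) were compared with seedlings left in white light at 21 °C for the same 24 h (21WL). The libraries were chosen by condition and time alone: both 30FR libraries and both 21WL libraries of the 24 h collection, 4 of the 32 libraries in the experiment. Of 33602 genes in the count table, 20145 passed the filter on low counts and were tested. All seedlings were Arabidopsis thaliana of the wild-type accession Columbia (Col-0), grown upright on 0.5X LS plates in constant LED white light of about 70 µE at 21 °C for 3 days. The 30FR seedlings were then moved to 30 °C with added far-red light, at an R/FR ratio of 0.6. The 21WL seedlings stayed where they were. The experiment also held seedlings given low R/FR alone at 21 °C (21FR) and warmth alone in white light (30WL), and each of the 4 conditions was sampled at 1, 3, 6 and 24 h with 2 biological replicates. Each sample was a pool of about 25 whole seedlings. By the study's definition a replicate is an independent pool of plants grown side by side, so the test measures the spread between such pools.

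Plants read the red to far-red ratio through phytochromes, chiefly phytochrome B, whose active form holds back the PHYTOCHROME-INTERACTING FACTORS (PIFs), a family of basic helix-loop-helix transcription factors. Far-red light reflected by neighbours and warmth both lower the pool of active phytochrome B, and PIFs then drive growth-related genes, many of them in auxin synthesis and response. Warmth also engages the heat shock factors, which bind heat shock elements upstream of chaperone genes.

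At 24 h the 30FR libraries held 24654078 and 20460613 counts on genes and the 21WL libraries 13729864 and 15445661 counts. The replicates of 30FR lay close together and those of 21WL farther apart, so that several results below depend on which 21WL library is read. Spread was taken as the median absolute log2 difference between replicates, divided by the square root of 2. It covers genes that averaged at least 5 CPM at 24 h and is not an SD. It was 0.0655 in 30FR and 0.132 in 21WL. Reads that mapped to several places took 21.0% and 16.5% of the 30FR libraries and 15.2% and 13.0% of the 21WL libraries and were left out of the counts, which makes the values of near-identical gene copies (CAB1 to CAB3, the LHCB2 and RBCS genes, the SAUR19 to SAUR24 group) uncertain. As a check on tissue, 0 of 11 root marker genes were called in either direction (median log2FC of −0.02, edgeR's quasi-likelihood test, 1 at an FDR under 0.05; without 21WL replicate 1, 1 was called higher with a median of 0.07, and without replicate 2 the median was −0.13), and their summed level was 2848 and 2610 CPM in 30FR, against 3199 and 4161 CPM in 21WL. Because whole seedlings were pooled, fewer cells of a type and less RNA per cell cannot be told apart.

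A gene was called when the log2 fold change of 30FR over 21WL (log2FC) was beyond 1 in size and the false discovery rate (FDR, the Benjamini-Hochberg adjusted p of edgeR's quasi-likelihood test over all genes) was under 0.05. Levels are in CPM, counts brought to a common library size with the TMM factor of each library, and paired values are replicates 1 and 2. By this rule 347 genes were higher in 30FR (1.72% of the genes tested) and 329 were lower (1.63%). The FDR alone passed 21.3% of the genes, 1871 in the higher direction (9.29%) and 2410 in the lower (12.0%). Called genes had a median absolute log2FC of 1.46 among the higher and 1.45 among the lower, and 87 and 76 of them passed an absolute log2FC of 2. The libraries of the 2 conditions did not overlap for 673 of the 676 called genes (3.36% of the genes tested), while they did not overlap for 60.4% of all genes tested. The counts moved with the 21WL library read: without 21WL replicate 1 they were 540 higher and 517 lower, and without 21WL replicate 2 they were 198 higher and 185 lower. With total counts in place of the TMM factors, an alternative chosen after seeing the data, the median log2FC of all genes moved to 0.21 and the split became 597 higher and 227 lower.

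**Figure D1:**
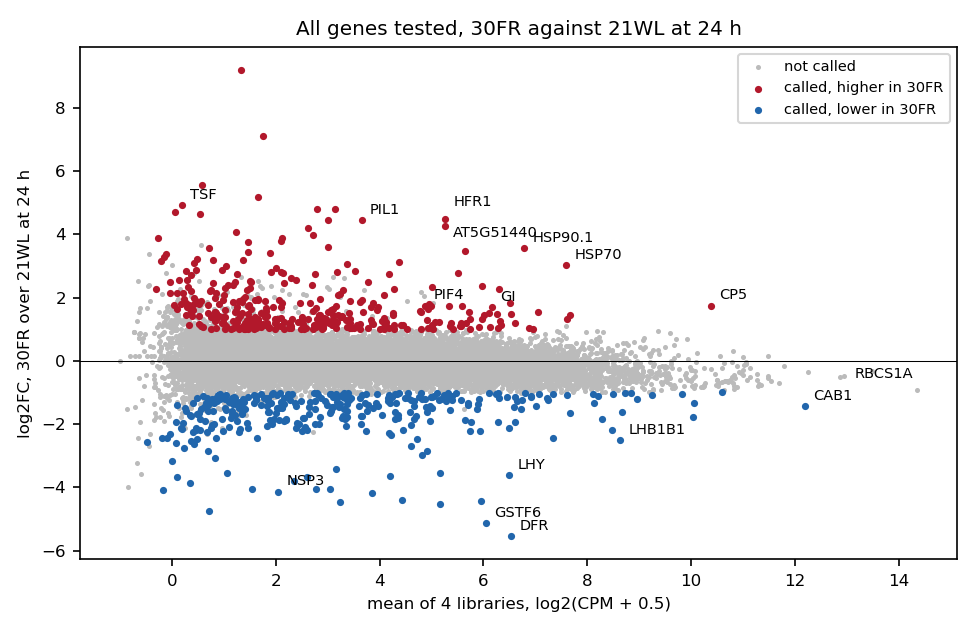
Each point is 1 of the 20145 genes tested, with its mean level over the 4 libraries on the x axis (log2 of CPM plus 0.5) and its log2FC of 30FR over 21WL at 24 h on the y axis. Red points (347) were called higher in 30FR and blue points (329) lower; the most abundant genes, such as RBCS1A and CAB1, lie below 0, and HFR1, PIL1 and HSP90.1 stand well above the cloud.

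Among the called genes that averaged at least 5 CPM, the 10 with the largest rises were FLP1, AT1G72660, HFR1, HSP17.4, PIL1, AT5G51440, AT5G25450, IAA29, TIN1 and HSP90.1, with log2FC between 4.79 and 3.57. They joined shade and auxin genes with chaperones. FLP1 (AT4G31380), annotated as a flowering-promoting factor-like protein, had 13.8 and 10.8 CPM in 30FR, against 0.810 and 0.0678 CPM in 21WL (log2FC 4.79, SE 0.515, FDR 2.67e-06). AT1G72660, annotated as a P-loop nucleoside triphosphate hydrolase, had 14.8 and 17.35 CPM in 30FR, against 0.675 and 0.475 CPM in 21WL (log2FC 4.79). TIN1 (AT5G64510), a protein induced by tunicamycin, which blocks protein glycosylation in the endoplasmic reticulum, had 13.4 and 14.5 CPM in 30FR, against 0.877 and 1.43 CPM in 21WL (log2FC 3.59). The 10 largest falls were of DFR, GSTF6, AT4G14090, AT1G03495, LDOX, UF3GT, AT5MAT, AT1G03940, PAP1 and TT8, with log2FC between −5.53 and −3.66. Of these, 6 belong to the anthocyanin list described below. GSTF6 (AT1G02930), a glutathione S-transferase, had 3.47 and 3.81 CPM in 30FR, against 158 and 98.5 CPM in 21WL (log2FC −5.14, SE 0.591, FDR 5.53e-06). Another 3 are acyltransferases of the HXXXD type: AT5MAT (AT3G29590), which adds malonate to anthocyanins, fell by 4.18 on the log2 scale, AT1G03495 by 4.45 and AT1G03940 by 4.05.

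Genes downstream of phytochrome were represented by a few strongly changed members. PIL1 (AT2G46970), a PIF-related factor used as a marker of shade, had 24.6 and 21.5 CPM in 30FR, against 1.35 and 0.746 CPM in 21WL (log2FC 4.45, SE 0.264, FDR 7.15e-10). HFR1 (AT1G02340), an atypical helix-loop-helix protein that binds PIFs and limits the shade response, had 73.7 and 70.8 CPM in 30FR, against 4.25 and 2.17 CPM in 21WL (log2FC 4.49, SE 0.289, FDR 1.68e-09). For both genes the 30FR libraries lay far above the 21WL libraries. The other 2 of the 4 shade helix-loop-helix factors, PAR1 and PAR2, did not pass the test. HB-2 (AT4G16780, also known as ATHB2), a homeodomain-leucine zipper factor of class II that shade induces within minutes, had 28.7 and 24.3 CPM in 30FR, against 6.28 and 6.31 CPM in 21WL (log2FC 2.07, SE 0.186, FDR 3.26e-07). It was the 1 of 5 class II factors called.

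Of 6 PIF genes, 1 was called. PIF4 (AT2G43010), the PIF best known from warmth responses, had 44.0 and 44.8 CPM in 30FR, against 18.1 and 8.41 CPM in 21WL (log2FC 1.74, SE 0.26, FDR 8.45e-05), and an FDR of 0.0581 in a fit to the compared groups alone. PIL6 (AT3G59060, PIF5) stood at 49.3 and 47.7 CPM in 30FR, against 34.4 and 32.02 CPM in 21WL, with an FDR of 0.0223 but a log2FC of 0.55. PIF7 (AT5G61270), the PIF best known from low R/FR, stood at 14.2 and 12.2 CPM in 30FR, against 16.5 and 21.6 CPM in 21WL (log2FC −0.53, FDR 0.0427). The transcripts of PIF4 and PIF7 thus lay on opposite sides of 0. PIF7 was not called, and its log2FC was between −0.71 and −0.32 over the alternatives run. PHYB itself (AT2G18790) stood at 125 and 131 CPM in 30FR, against 92.8 and 87.2 CPM in 21WL (log2FC 0.51, FDR 2.09e-04). In the list of 15 photoreceptor and light signalling genes, 2 were called, both lower. HYH (AT3G17609), a bZIP factor related to HY5, had 21.0 and 20.6 CPM in 30FR, against 35.4 and 53.6 CPM in 21WL (log2FC −1.10), and ELIP2 (AT4G14690), an early light-induced chlorophyll-binding protein, had a log2FC of −1.02. Both are near the threshold on the fold change: without 21WL replicate 2 the log2FC of HYH was −0.77, and that of ELIP2 was −0.86 without 21WL replicate 1 and −0.93 without 30FR replicate 1.

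The auxin-related genes called at 24 h were mostly SAUR genes. IAA29 (AT4G32280), an Aux/IAA repressor of auxin signalling, had 14.3 and 8.38 CPM in 30FR, against 0.742 and 0.678 CPM in 21WL (log2FC 3.99, SE 0.448, FDR 4.30e-06), the only one of 13 Aux/IAA genes called, and the list had a median log2FC of 0.16. None of 7 auxin synthesis genes was called in edgeR's quasi-likelihood test, with 1 of them, YUC9, under an FDR of 0.05. YUC9 (AT1G04180), a flavin monooxygenase of the last step of auxin synthesis, stood at 3.51 and 2.26 CPM in 30FR, against 1.89 and 1.43 CPM in 21WL (log2FC 0.81, FDR 0.0411), and YUC8 (AT4G28720), of the same family, at 6.49 and 5.87 CPM, against 4.66 and 2.98 CPM in 21WL (log2FC 0.69, FDR 0.0872). Both were called without 21WL replicate 1, YUC8 at a log2FC of 1.05 (FDR 0.0426) and YUC9 at 1.02 (FDR 0.0455), and YUC9 also without 30FR replicate 2 (log2FC 1.08) and with total counts. Among 53 SAUR genes, small auxin-induced genes that promote cell expansion, 8 were called higher and 1 lower, with a median log2FC of 0.29. Over all genes tested the shares were 1.72% higher and 1.63% lower. Of the 8 higher SAUR genes, 6 lie next to each other in the SAUR19 to SAUR24 cluster of chromosome 5. AT5G18030 of that cluster had 6.32 and 6.12 CPM in 30FR, against 0.675 and 0.950 CPM in 21WL (log2FC 2.93, FDR 2.48e-05), and SAUR20 (AT5G18020) had 6.29 and 5.78 CPM, against 1.75 and 1.63 CPM in 21WL (log2FC 1.83). SAUR22 had 169 and 105 reads in 30FR, against 3 and 1 in 21WL, and SAUR19 had 55 and 42, against 2 and 0, so that no fold is given for them. EXPA8 (AT2G40610), an alpha-expansin that loosens cell walls, had 33.9 and 47.5 CPM in 30FR, against 14.4 and 13.2 CPM in 21WL (log2FC 1.55, FDR 9.75e-05), the 1 of 18 expansins called (2 without 21WL replicate 1). PRE1 (AT5G39860), a growth-promoting helix-loop-helix protein, was called with a log2FC of 1.14, but its FDR exceeded 0.05 whichever of the 4 libraries was left out (0.0700 to 0.0918).

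Many chaperone genes were higher a day after the transfer. Of 14 small heat shock protein genes, which keep unfolding proteins soluble, 7 were called higher and 0 lower, against 1.72% of all genes, with a median log2FC of 3.62 (3.35 with genes of at most 3 reads in 21WL taken at that limit). AT5G51440, annotated as an HSP20-like chaperone, had 71.6 and 71.8 CPM in 30FR, against 3.44 and 4.07 CPM in 21WL (log2FC 4.25, SE 0.448, FDR 2.19e-06). HSP17.4 (AT3G46230) had 12.4 and 16.2 CPM in 30FR, against 0.810 and 0.475 CPM in 21WL (log2FC 4.46, SE 0.749, FDR 2.64e-04). AT1G53540 had 6.36 and 7.84 CPM, against 0.607 and 0.407 CPM in 21WL (log2FC 3.78), and AT2G29500 had 17.2 and 21.4 CPM, against 5.74 and 4.41 CPM in 21WL (log2FC 1.92). HSP23.6-MITO, a mitochondrial member, had 131 and 163 reads in 30FR, against 1 and 0 in 21WL. The other called members, HSP17.6A and HSP17.6II, had few reads in 21WL and lost their call when single libraries were left out. The FDR of HSP17.6A was 0.144 without 21WL replicate 2 and 0.0633 without 30FR replicate 2, and that of HSP17.6II was 0.108 without 21WL replicate 1, 0.145 without 21WL replicate 2 and 0.0852 without 30FR replicate 2. Thus 6 of the 14 were called without 21WL replicate 1 and 5 without replicate 2. In the summed level of the list, 30FR stood at 140.4 and 155.3 CPM, against 18.22 and 14.65 CPM in 21WL.

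The larger chaperones also rose: 7 of 12 genes for HSP70, HSP90, HSP101 and their partners were called higher and 0 lower (median log2FC 1.73), against 1.72% of all genes called higher. HSP90.1 (AT5G52640), the heat-inducible cytosolic HSP90, had 194 and 213 CPM in 30FR, against 18.4 and 15.74 CPM in 21WL (log2FC 3.57, SE 0.487, FDR 3.45e-05). HSP70 (AT3G12580) had 334 and 353 CPM in 30FR, against 42.0 and 42.6 CPM in 21WL (log2FC 3.02). AT5G48570, an FKBP-type peptidyl-prolyl isomerase that acts with HSP90, had 89.8 and 90.8 CPM, against 8.03 and 8.14 CPM in 21WL (log2FC 3.48), and MBF1C (AT3G24500), a coactivator needed for tolerance to heat, had 83.0 and 74.9 CPM, against 12.01 and 11.1 CPM in 21WL (log2FC 2.77). In none of the 4 did the conditions overlap, as in 673 of the 676 called genes and 60.4% of all genes tested. The constitutive members HSC70-1 and HSP81-2 had log2FC of 0.11 and 0.20 and did not pass the test. HSP101 (AT1G74310), which pulls proteins out of aggregates, had 45.6 and 50.05 CPM in 30FR, against 15.1 and 13.6 CPM in 21WL (log2FC 1.74, FDR 0.0238), and its FDR was between 0.0588 and 0.158 whichever of the 4 libraries was left out. HSP70T-2 had a log2FC of 2.11 and an FDR of 0.0661 without 21WL replicate 2. Of 11 heat shock factor genes, HSFA3 (log2FC 1.31, FDR 3.06e-05) and HSFB2A (log2FC 1.02, FDR 0.0350) were called. HSFB2A was lost without 21WL replicate 2 (FDR 0.245), without 30FR replicate 1 (0.0905) and without 30FR replicate 2 (0.130), while HSFA3 was not lost when any library was left out. HSFA2, the heat-induced activator of the family, stood at 8.20 and 9.47 CPM in 30FR, against 2.43 and 1.70 CPM in 21WL (log2FC 2.09, FDR 0.0722), and passed in 6 of 13 alternatives, among them DESeq2 (FDR 0.019) and the 24 h libraries alone (FDR 1.71e-03). Among 9 chaperones of the endoplasmic reticulum, 1 was called, the co-chaperone gene ATERDJ3A (log2FC 1.64), and the median was 0.21.

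Heat shock elements (GAANNTTC, a palindrome, in the 300 bases before the annotated gene start in RefSeq's TAIR10.1) occurred in 11.1% of 19556 protein-coding genes tested, in 13.3% of the genes called higher, in 12.3% of those called lower and in 4 of the 14 small heat shock genes. HSP17.4 (chr3:16984949-16984976 and chr3:16984868-16984895, minus strand) and AT1G53540 (chr1:19980236-19980263, plus strand) were the 2 called small heat shock genes with an element in this window. The other called members, some with larger rises than AT1G53540, had none. The sites are shown on the strand of the gene, with the element in capitals and up to 10 bases on either side.
HSP17.4, 99 bases before the start: catcaacataGAAGCTTCttgaagccac
HSP17.4, 18 bases before the start: gaagaaacctGAAATTTCaagaaacttg
AT1G53540, 53 bases before the start: ctcaacaccaGAAACTTCttgaaagcac

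The called clock genes split in direction. Of 15, 6 were called higher and 3 lower (median log2FC 0.88), against 1.72% and 1.63% of all genes. The 3 lower genes encode MYB-related factors that peak at dawn, and 5 of the 6 higher genes peak in the day or evening. These are phases under day and night, while the seedlings here were in constant light. LHY (AT1G01060) had 12.9 and 14.1 CPM in 30FR, against 134 and 198 CPM in 21WL (log2FC −3.62, SE 0.289, FDR 5.69e-08), its partner CCA1 (AT2G46830) had 27.1 and 33.0 CPM, against 76.3 and 94.9 CPM in 21WL (log2FC −1.51), and RVE8 (AT3G09600), a related activator, had 19.97 and 20.9 CPM, against 45.2 and 75.4 CPM in 21WL (log2FC −1.56). The conditions did not overlap for any of the 3, as for 673 of the 676 called genes and 60.4% of all genes tested. GI (AT1G22770), which stabilises proteins of the clock and of flowering, had 102 and 117 CPM in 30FR, against 44.5 and 22.5 CPM in 21WL (log2FC 1.71, FDR 5.75e-06). PRR7 (AT5G02810), a repressor of CCA1 and LHY, had 95.9 and 108 CPM, against 49.1 and 21.7 CPM in 21WL (log2FC 1.52). The evening complex gene PCL1 (AT3G46640, also known as LUX) had 76.6 and 75.8 CPM, against 34.8 and 25.6 CPM in 21WL (log2FC 1.34), its homologue BOA (AT5G59570) a log2FC of 1.55 and ELF4 (AT2G40080) of 1.22. For these rising genes 21WL replicate 2 was the lower of the 2 controls, and for LHY, CCA1 and RVE8 the higher. Without it, ELF4 (log2FC 0.98) and AT5G64170, the LNK1 locus (0.97 against 1.21 with all libraries), fell below the fold threshold, leaving 4 higher and 3 lower, and without 21WL replicate 1 there were 8 higher and 3 lower. In a fit to the compared groups alone, GI (FDR 0.0567), PRR7 (0.0782) and BOA (0.0505) were not called.

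Evening elements (AAAATATCT on either strand), which evening-phased genes often carry, were present in 2.94% of the 19556 windows, in 3.70% of the genes called higher and in 4.43% of those called lower, and in 4 of the 15 clock genes. The G-box CACGTG, a palindrome that PIFs and other factors bind, was present in 8.29% of all windows, 14.2% of the genes called higher, 10.1% of those called lower and 7 of the 15 clock genes, on both sides of the split. They are given for 3 rising genes and the 2 dawn repressors, with the element or its reverse complement in capitals: PCL1 (chr3:17182979-17183007 and chr3:17182839-17182864, plus strand), BOA (chr5:24003835-24003863 and chr5:24003791-24003816, plus strand), PRR7 (chr5:642216-642241, minus strand), CCA1 (chr2:19245388-19245413, plus strand) and LHY (chr1:37936-37961, minus strand).
PCL1 evening element: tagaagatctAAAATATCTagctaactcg
BOA evening element: tgcgggtaaaAGATATTTTagattatcta
PCL1 G-box: cttttcactcCACGTGgctccatctt
BOA G-box: gttgattacaCACGTGtcacttagac
PRR7 G-box: cccaccattaCACGTGtcagttcaaa
CCA1 G-box: gtgtatcagaCACGTGtcgacaaact
LHY G-box: acaatatcacCACGTGtcgatctgcg

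Anthocyanin synthesis genes were lower in 30FR, and they held 6 of the 10 largest falls named above. Of 21 flavonoid and anthocyanin genes, 10 were called lower and 0 higher, against 1.63% of all genes called lower, 16 were lower at an FDR under 0.05, and the median log2FC was −1.02. DFR (AT5G42800), dihydroflavonol 4-reductase, the first enzyme committed to anthocyanins, had 3.33 and 4.53 CPM in 30FR, against 188 and 174 CPM in 21WL (log2FC −5.53, SE 0.696, FDR 1.42e-05). LDOX (AT4G22880), which acts next, had 4.58 and 6.33 CPM, against 129 and 107 CPM in 21WL (log2FC −4.44, FDR 1.68e-05). The glycosyltransferases UF3GT (AT5G54060) and AT4G14090, which decorate the pigment, fell by 4.40 and 4.53 on the log2 scale, and GSTF12 (AT5G17220, also known as TT19), which carries it to the vacuole, had 5.0 and 6.16 CPM, against 65.3 and 65.6 CPM in 21WL (log2FC −3.56). The regulators of these late steps fell too: PAP1 (AT1G56650), a MYB factor, had 0.382 and 1.09 CPM in 30FR, against 15.3 and 8.34 CPM in 21WL (log2FC −4.04), and TT8 (AT4G09820), its helix-loop-helix partner, had 0.590 and 1.05 CPM, against 12.01 and 8.48 CPM in 21WL (log2FC −3.66). The early steps shared with flavonols stood closer to their control level than these late steps. Still, TT7 (AT5G07990) was called at a log2FC of −1.39, with 27.5 and 29.5 CPM in 30FR, against 96.7 and 52.4 CPM in 21WL. MYB11 (AT3G62610), a MYB factor, was called at −1.04. TT4 (AT5G13930), chalcone synthase, stood at 539 and 617 CPM in 30FR, against 774 and 793 CPM in 21WL (log2FC −0.44, FDR 0.0479), TT5 (AT3G55120), chalcone isomerase, had 44.9 and 45.3 CPM, against 92.9 and 89.8 CPM in 21WL (log2FC −1.02), and FLS1, flavonol synthase, had a log2FC of −0.38 and an FDR of 0.0659. MYB12 (AT2G47460), a flavonol regulator, was the 1 member above 0 at an FDR under 0.05 (log2FC 0.52). With either 21WL library left out, 9 of the 21 were called: without replicate 1, TT5 had a log2FC of −0.99 and TT7, the flavonoid 3′-hydroxylase, of −0.88, and without replicate 2, MYB11 had an FDR of 0.0623 (0.105 without 30FR replicate 1).

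G-boxes lay in 6 of the 21 windows of this list, against 8.29% of all windows. Among the called members only DFR (chr5:17166033-17166056) and UF3GT (chr5:21938552-21938577 and chr5:21938509-21938534) carried them. The other called members, LDOX, AT4G14090, PAP1 and TT8 among them, had none in this window. The sites are given on the minus strand of the 2 genes with the motif in capitals.
DFR, 14 bases before the start: caacgttcccCACGTGcttctccg
UF3GT, 171 bases before the start: catcaattacCACGTGaagtctggtt
UF3GT, 128 bases before the start: acgataccatCACGTGtttgcactta

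Photosynthesis genes fell broadly and mostly by less than 2-fold. Of 43 nuclear genes for photosystem subunits and their antennae, 8 were called lower and 0 higher, but 37 were lower at an FDR under 0.05, against 12.0% of all genes, and the median log2FC was −0.75. The largest falls were in the antenna of photosystem II. LHB1B1 (AT2G34430) had 103 and 136 CPM in 30FR, against 861 and 488 CPM in 21WL (log2FC −2.50, SE 0.269, FDR 2.88e-06), and LHCB2.3 (AT3G27690) had 120 and 134 CPM, against 609 and 552 CPM in 21WL (log2FC −2.19). CAB1 (AT1G29930), among the most abundant transcripts of the seedling, had 2483 and 2583 CPM, against 6238 and 7358 CPM in 21WL (log2FC −1.42). The list summed to 40840 and 41000 CPM in 30FR, against 62630 and 71640 CPM in 21WL. All 11 chlorophyll synthesis genes tested were lower at an FDR under 0.05 (median −0.74), with GUN4 (AT3G59400), a regulator of magnesium chelatase, and CHLI1 (AT4G18480), a subunit of it, called at −1.05 and −1.01. Without 21WL replicate 1, 4 of the 11 were called. Neither GUN4 nor CHLI1 was called without 21WL replicate 2, when the median was −0.46, GUN4 stood at −0.85 and CHLI1 at −0.68, and GUN4 stood at −0.96 without 30FR replicate 1. Of 4 genes for the small subunit of Rubisco, RBCS1A (AT1G67090) had 14910 and 13960 CPM in 30FR, against 21770 and 33420 CPM in 21WL (log2FC −0.93, FDR 3.15e-04), and RBCS1B was called at −1.001 but had a log2FC of −0.37 without 21WL replicate 2 and of −0.94 without 30FR replicate 2. Without 21WL replicate 2, 7 photosystem genes were called (PSBTN had a log2FC of −0.87), and without replicate 1, 12. Of 293 genes with a ribosomal protein product, plastid ones included, 164 were lower at an FDR under 0.05 with a median of −0.46, and 2 were called lower and 1 higher. Without 21WL replicate 1 the called became 23 lower and 1 higher (median −0.62), and without replicate 2, 0 lower and 1 higher (−0.27). Of 40 histone genes, 23 were lower at an FDR under 0.05 (median −0.35) and none was called. Over all settings run, total counts included, the median lay between −0.62 and −0.25 for the ribosomal protein genes. For the histone genes it lay between −0.48 and −0.16.

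**Figure D2:**
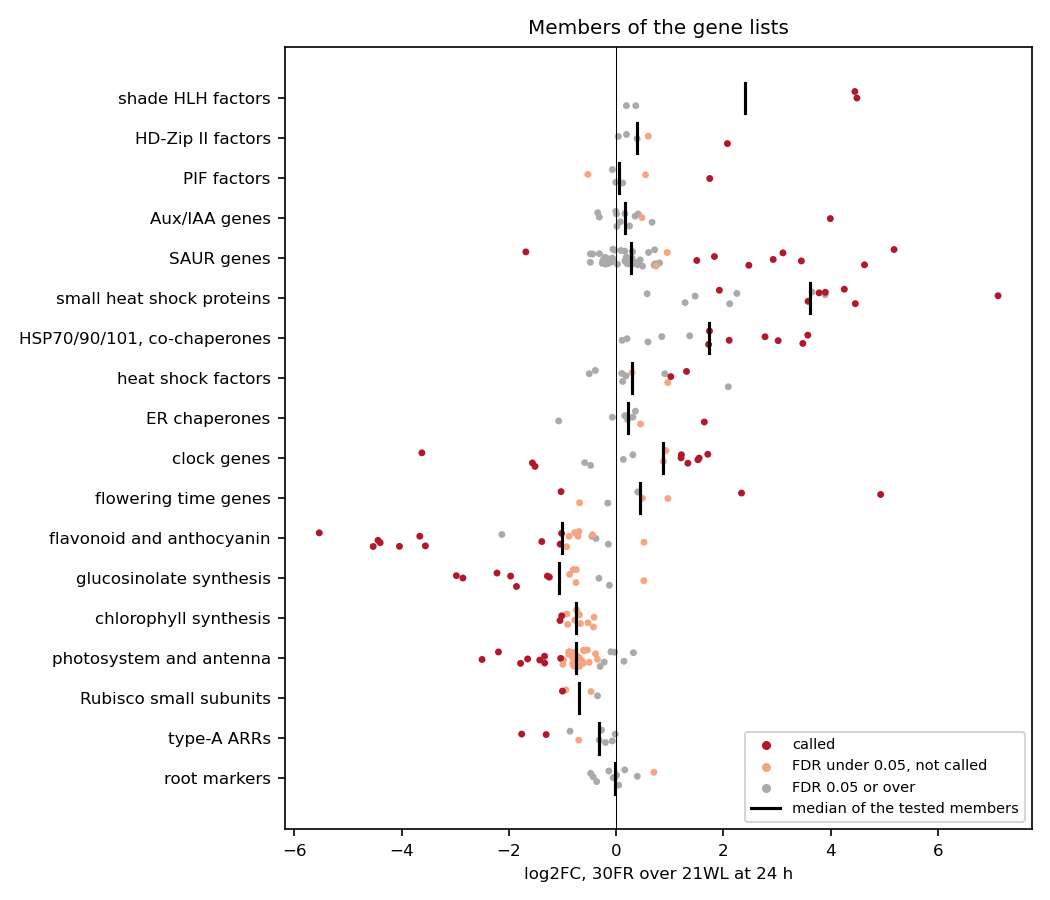
Each point is 1 tested member of a gene list, placed by its log2FC of 30FR over 21WL at 24 h; dark red points were called, orange points passed the FDR alone, and the bar is the median of the tested members. All members of the small heat shock list lie right of 0 (those with at most 3 reads in 1 condition at a fitted value that is no bound), flavonoid, chlorophyll and photosystem genes mostly left of it, clock genes on both sides, and root markers around 0.

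Glucosinolate synthesis, which makes the sulphur-rich defence compounds of the cabbage family, gave a fall that 1 control library decides. With all libraries 7 of 14 genes were called lower and 0 higher (median log2FC −1.06, 11 lower at an FDR under 0.05). Over all genes tested 1.63% were called lower and 12.0% were lower by the FDR alone. CYP79F1 (AT1G16410), the enzyme that enters chain-elongated methionine into the pathway, had 3.44 and 9.10 CPM in 30FR, against 8.84 and 89.3 CPM in 21WL, so that the conditions overlapped (log2FC −2.98, FDR 0.0179). BCAT4 (AT3G19710), the first step of the chain elongation, had 5.59 and 8.76 CPM, against 17.3 and 86.4 CPM in 21WL (log2FC −2.86), and MAM1 (AT5G23010), its condensing enzyme, had 18.5 and 24.3 CPM, against 28.9 and 171 CPM in 21WL (log2FC −2.22). In every one of the 7, 21WL replicate 2 stood far above replicate 1, and the list summed to 413 and 430.2 CPM in 30FR, against 548.3 and 1159 CPM in 21WL. Without replicate 2 none of the 14 was called and the median was −0.36, with CYP79F1 at −0.51, BCAT4 at −1.27 (FDR 0.185), MAM1 at −0.43, CYP83A1 at −0.29, SOT17 at −0.41, MYB29 at −0.22 and FMO GS-OX1 at −0.09. Without replicate 1, 10 of the 14 were called. The part of the difference between the 2 controls in this fall was not tested further.

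**Figure D3:**
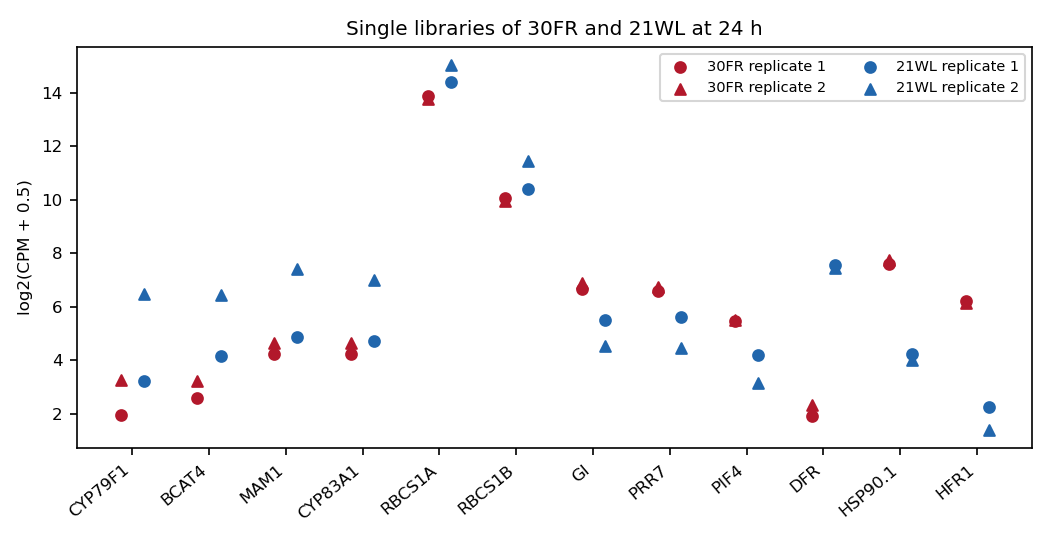
Levels of 12 genes in the single libraries of 30FR (red) and 21WL (blue) at 24 h, on a log2 scale of CPM plus 0.5, with circles for replicate 1 and triangles for replicate 2. The 21WL replicates lie far apart for the glucosinolate genes CYP79F1, BCAT4, MAM1 and CYP83A1 and close together for DFR and HSP90.1, whose 30FR values lie away from both.

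Of 8 flowering time genes, 2 were called higher, FT and TSF, and 1 lower, MAF1, against 1.72% and 1.63% of all genes. FT (AT1G65480), the mobile flowering signal, had 1.39 and 1.05 CPM in 30FR, against 0.135 and 0.339 CPM in 21WL (log2FC 2.34, SE 0.524, FDR 3.76e-03, and 0.071 in a fit to the compared groups alone), and its sister gene TSF (AT4G20370) had 36 and 29 reads in 30FR, against 0 and 1 in 21WL. CO (AT5G15840), the activator of FT, stood at 8.89 and 7.88 CPM, against 3.58 and 5.02 CPM in 21WL (log2FC 0.96, FDR 8.40e-03), and was called without 21WL replicate 2 (log2FC 1.23), without 30FR replicate 2 (1.05) and with total counts. MAF1 (AT1G77080, also known as FLM), a MADS-box repressor of flowering under cool conditions, had 14.1 and 12.3 CPM in 30FR, against 26.2 and 27.8 CPM in 21WL (log2FC −1.03, FDR 3.26e-07), and its call rests on the fold threshold, since the log2FC was −0.99 without 21WL replicate 2 and −0.94 without 30FR replicate 2. Its relative FLC stood at a log2FC of −0.68 (FDR 8.69e-03). Without 21WL replicate 2, 3 of the 8 were called higher and 0 lower.

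Several other lists had few called members, beside 1.72% of all genes called higher and 1.63% called lower. Of 10 gibberellin oxidases, 1 was called higher and 1 lower, and the median log2FC was 0.16. GA2OX4 (AT1G47990), which inactivates gibberellin, had 1.63 and 2.18 CPM in 30FR, against 0.540 and 0.271 CPM in 21WL (log2FC 2.21). GA3OX1 (AT1G15550), which makes the active hormone, had 6.39 and 5.28 CPM, against 12.6 and 12.5 CPM in 21WL (log2FC −1.09, and −0.97 without 30FR replicate 2). Of 9 type-A response regulators of cytokinin signalling, ARR7 (log2FC −1.76) and ARR15 (−1.30) were called lower, and both calls were lost without 21WL replicate 2 (FDR 0.136 for ARR7 and 0.245 for ARR15) and that of ARR15 also without 30FR replicate 2 (FDR 0.176). XTH20 (AT5G48070) and XTH31 (AT3G44990), enzymes that cut and rejoin xyloglucan in the wall, fell by 1.804 and 1.47 on the log2 scale, and none of 28 XTH genes was called higher. XTH20 had 2.57 and 2.05 CPM in 30FR, against 8.17 and 8.07 CPM in 21WL. ACS4 (AT2G22810), an ethylene synthesis gene, had 1 and 3 reads in 30FR, against 9 and 22 in 21WL, and its FDR without 21WL replicate 2 was 0.0924. In the jasmonate list VSP2 and JAZ5 were called higher out of 13, VSP2 with a log2FC of 1.58 and an FDR of 0.298 without 21WL replicate 2 and 0.235 without 30FR replicate 2, JAZ5 with a log2FC of 1.61 and an FDR of 0.137 without 21WL replicate 1 and 0.175 without 30FR replicate 2. The median log2FC was 0.11 over 11 ABA and dehydration genes and −0.40 over 6 cold response genes. Both changed sign with the 21WL library left out: 0.52 without replicate 1 and −0.14 without replicate 2 for the ABA genes, and 0.41 and −0.98 for the cold genes. No cell cycle (11 tested), brassinosteroid (6), salicylic acid (9), desaturase (8) or cellulose synthase (10) gene was called, and 2, 2, 1, 3 and 3 of them passed the FDR alone. Without 21WL replicate 1, 1 desaturase was called higher and 1 lower. NAS4 was the 1 of 18 iron genes called (log2FC −1.26, and −0.9995 without 21WL replicate 2). BETA-TIP was the 1 of 20 aquaporins called (log2FC 2.23, FDR 0.0480), and its call was lost with any library but 21WL replicate 1 left out. Of 103 pectin enzymes 4 were called and of 55 class III peroxidases 3, against 3.36% of all genes in either direction.

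Against low R/FR alone, 30FR had 324 genes higher (1.61% of the genes tested) and 261 lower (1.30%), and 206 and 145 without 30FR replicate 2. Many chaperones were again higher: 9 of 14 small heat shock genes and 7 of 12 larger chaperones were called higher than in 21FR, and 7 of 21 flavonoid genes lower. HSP90.1 stood at 194 and 213 CPM in 30FR, against 11.7 and 9.54 CPM in 21FR (log2FC 4.26), and DFR at 3.33 and 4.53 CPM, against 35.0 and 36.4 CPM in 21FR (log2FC −3.19). By FDR the leading genes that rose were AT5G47435, a formyltetrahydrofolate deformylase, AT5G14840, AT2G46250, annotated as a myosin heavy chain-like protein, CP5 and AT1G72660. AT5G47435 had 114 and 109 CPM in 30FR, against 35.1 and 38.1 CPM in 21FR (log2FC 1.61). CP5 (AT1G64720), a polyketide cyclase and lipid transport protein by its annotation, had 2180 and 1934 CPM, against 422 and 407 CPM in 21FR (log2FC 2.31). The leading genes that fell were MAF1, UGT72B3, AT1G06690, AT5G66530 and NSP3. NSP3 (AT3G16390), a nitrile specifier protein of glucosinolate breakdown, had 0.174 and 0.629 CPM in 30FR, against 6.67 and 6.76 CPM in 21FR (log2FC −4.10).

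Against warmth alone, far fewer genes were called, 23 higher (0.114%) and 68 lower (0.338%), in libraries that were shallower for 30WL (8750851 and 12949448 counts). Without 30FR replicate 2 the counts were 12 and 39, without 30FR replicate 1 they were 17 and 45, and without 30WL replicate 1 they were 14 and 40. The leading genes that rose were PIL1, HFR1, IAA29, ELF4 and FLP1. PIL1 stood at 24.6 and 21.5 CPM in 30FR, against 0.624 and 1.004 CPM in 30WL (log2FC 4.76), and HFR1 at 73.7 and 70.8 CPM, against 8.94 and 7.03 CPM in 30WL (log2FC 3.19). Antenna genes led the falls with LHB1B1, LHCB2.2 and LHCB2.3, beside AT1G29720, a receptor-like kinase by its annotation, and COL2. LHB1B1 stood at 103 and 136 CPM in 30FR, against 1340 and 809 CPM in 30WL (log2FC −3.17), and COL2 (AT3G02380), a CONSTANS-like zinc finger protein, at 8.13 and 7.38 CPM, against 44.7 and 41.2 CPM in 30WL (log2FC −2.47). Of the lists, 10 of 43 photosystem genes and 4 of 15 clock genes were called lower, 2 clock genes, 2 shade factors, 3 flowering genes and 3 SAUR genes higher, and no heat shock or flavonoid gene was called in either direction.

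The 3 comparisons with 21WL at 24 h share their control libraries, and their values are given side by side only. In 30FR, 21FR and 30WL the log2FC over 21WL was 4.45, 4.91 and −0.31 for PIL1, 3.57, −0.69 and 3.12 for HSP90.1, and −5.53, −2.34 and −3.15 for DFR. For DFR the 21FR value did not pass the test, and neither did 30FR over 30WL (log2FC −2.38, FDR 0.0956), although 30FR held the lowest levels. FT had 1.39 and 1.05 CPM in 30FR, 7.73 and 7.75 CPM in 21FR, 0 in both 30WL libraries, and 0.135 and 0.339 CPM in 21WL, so that 30FR lay between 21FR and the white light conditions and was 2.65 below 21FR on the log2 scale. Whether the 2 signals together differed from the sum of each alone was tested as an interaction, the log2FC of 30FR over 30WL minus that of 21FR over 21WL. In edgeR's quasi-likelihood test 0 genes were called with a positive interaction and 2 with a negative one (0.00993%), while 529 positive and 787 negative values had an unadjusted p under 0.05, and DESeq2 called 1 and 11. The 2 genes were EFE and AT4G27300. EFE (AT1G05010, also known as ACO4), the enzyme of the last step of ethylene synthesis, had 190 and 184 CPM in 30FR, 246 and 240 CPM in 21FR, 154 and 190 CPM in 30WL, and 105 and 102 CPM in 21WL (interaction −1.11, SE 0.167, FDR 0.0131). AT4G27300, an S-locus lectin protein kinase by its annotation, had 8.02 and 6.67 CPM in 30FR, 15.2 and 17.2 CPM in 21FR, 17.1 and 15.3 CPM in 30WL, and 13.1 and 12.5 CPM in 21WL (interaction −1.48, SE 0.201, FDR 6.17e-03), the lowest level in the combined treatment. Without 30FR replicate 2, without 21FR replicate 2 or with the 24 h libraries fitted alone, no negative interaction was called, and 1 was called without 30FR replicate 1, 21FR replicate 1 or 30WL replicate 2. Without 21WL replicate 1 there were 6 and without 21WL replicate 2 there were 3, and without 30FR replicate 1 or 21WL replicate 1 there was 1 positive interaction.

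**Figure D4:**
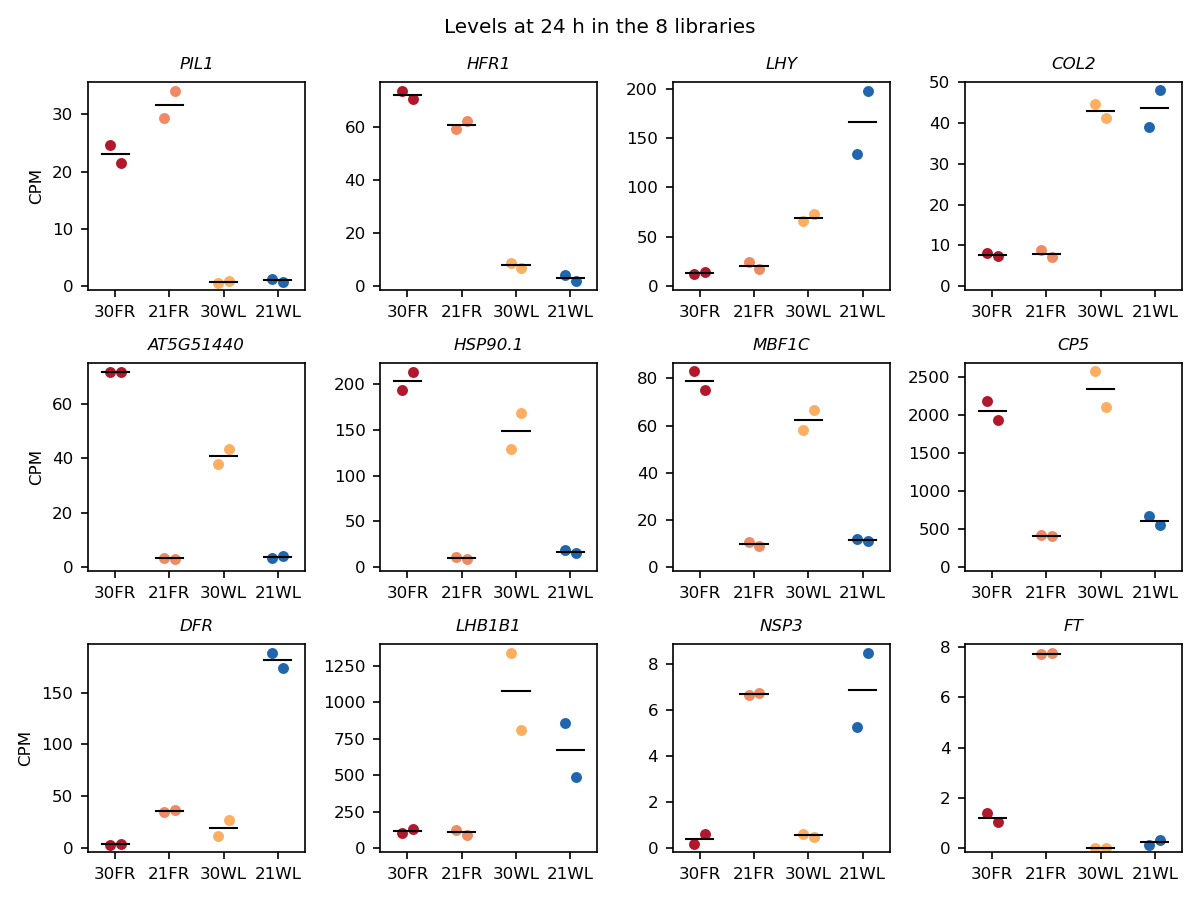
Levels of 12 genes (CPM, axes from 0) in the 2 libraries of each condition at 24 h, with 30FR at the left, then 21FR, 30WL and 21WL; bars are means. In 30FR, PIL1, HFR1, LHY and COL2 stand nearer to 21FR than to the white light conditions, AT5G51440, HSP90.1, MBF1C, CP5 and NSP3 stand nearer to 30WL than to the 21 °C conditions, DFR is lowest in 30FR, and FT in 30FR lies between 21FR and the white light conditions.

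Over the time course, 30FR against 21WL had 710 genes called higher and 596 lower at 1 h (3.52% and 2.96%), 420 and 409 at 3 h (2.08% and 2.03%), 412 and 324 at 6 h (2.05% and 1.61%), and 347 and 329 at 24 h. Each time point had its own 21WL libraries. Of the 347 genes higher at 24 h, 168 were also called higher at 1 h (48.4% of the 24 h list and 23.7% of the 1 h list), 141 at 3 h (40.6% and 33.6%) and 180 at 6 h (51.9% and 43.7%). Of the 329 lower genes, 106 were shared with 1 h (32.2% and 18%), 131 with 3 h (39.8% and 32%) and 156 with 6 h (47.4% and 48.1%). At all 4 times 93 genes (26.8%) were higher and 47 (14.3%) lower, and 110 (31.7%) and 108 (32.8%) were called at 24 h alone.

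The difference between the 24 h and the 1 h response was tested directly, and 186 genes had a higher log2FC at 24 h (0.923%) and 259 a lower one (1.29%). The counts were 95 and 165 without 30FR replicate 2 of 24 h and 108 and 176 without its replicate 1, and the higher count was 122 without 21WL replicate 2 of 1 h or 30FR replicate 1 of 1 h. Chaperones were among the lower ones: 4 of 14 small heat shock genes (median difference of −4.54), 5 of 12 larger chaperones (−2.01) and 8 of 9 chaperones of the endoplasmic reticulum (−1.28). At each time alone, all 14 small heat shock genes were called higher at 1 h with a median log2FC of 7.52, against 7 of 14 and 3.62 at 24 h, and all 9 chaperones of the endoplasmic reticulum at 1 h against 1 at 24 h. AT2G29500 had a log2FC of 7.46 at 1 h, 4.87 at 3 h, 3.72 at 6 h and 1.92 at 24 h (difference of −5.54 between 24 h and 1 h, FDR 2.6e-06). PIL1 stayed between 4.45 and 5.18 at all 4 times. LHY stood at −0.64 at 1 h, −1.09 at 3 h, −4.54 at 6 h and −3.62 at 24 h, and CCA1 had a positive log2FC of 1.02 at 1 h and 0.72 at 3 h, then −1.08 at 6 h and −1.51 at 24 h. ELF4 ran the other way, with −1.06 at 1 h and 1.22 at 24 h (difference of 2.28). DFR stood at −1.21 at 1 h (not past the test), −5.02 at 3 h, −5.20 at 6 h and −5.53 at 24 h. LHB1B1 had 0.62, 0.51 and −0.63 at 1, 3 and 6 h, none past the test, and −2.50 at 24 h.

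**Figure D5:**
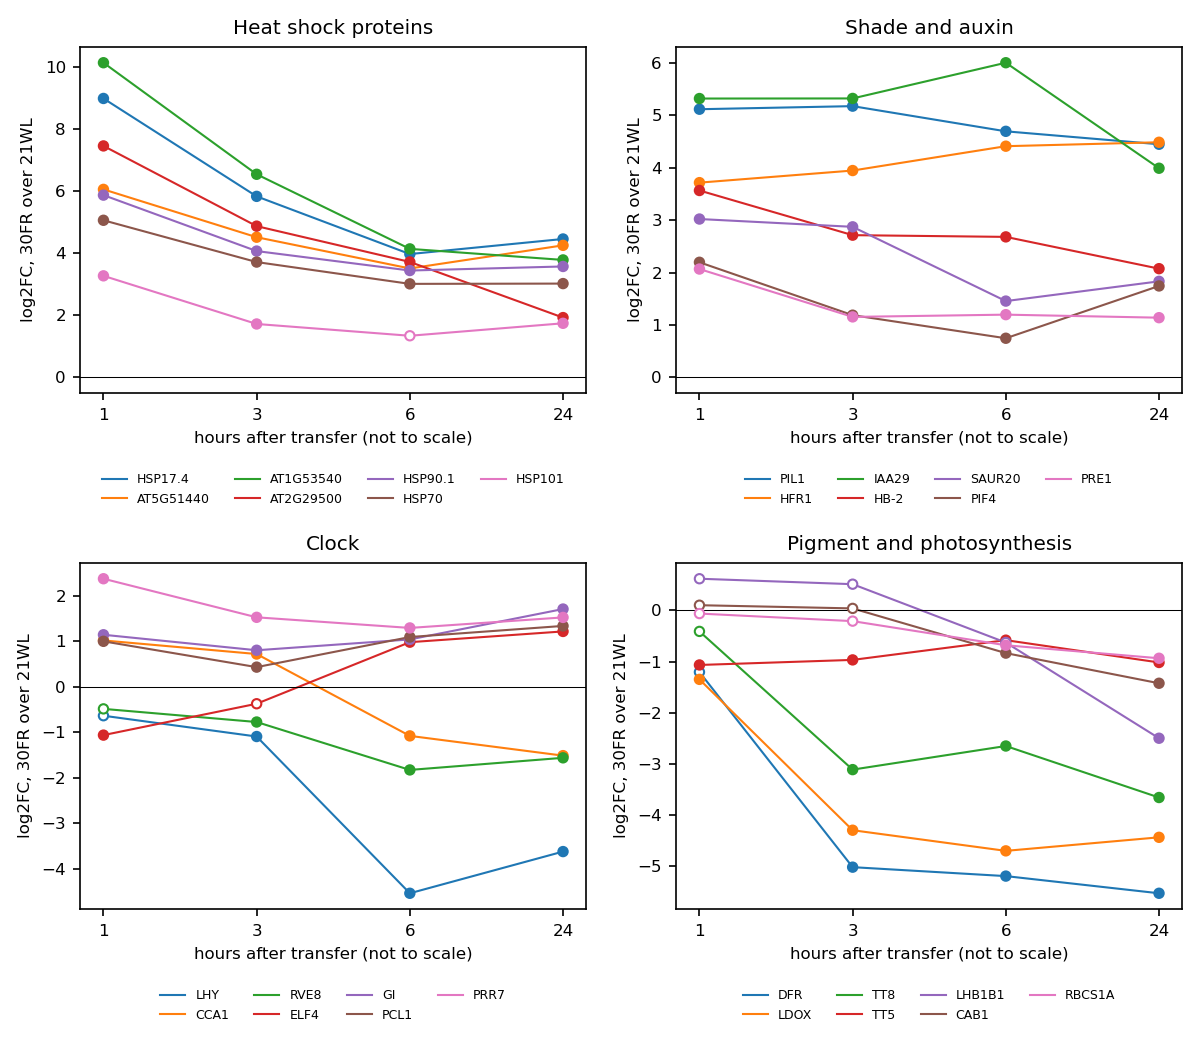
Log2FC of 30FR over 21WL at 1, 3, 6 and 24 h for 7 genes in each of 4 groups, with filled points for an FDR under 0.05 and open points otherwise; hours are evenly spaced and not to scale. Chaperones are highest at 1 h and still above 0 at 24 h, shade and auxin genes stay above 0 throughout, CCA1 and ELF4 cross 0 between 3 and 6 h, and DFR, LDOX and TT8 lie below −2.5 from 3 h on.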

How the data were processed

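RNA of whole seedlings was sequenced as stranded poly(A) mRNA libraries. The authors deposited raw counts of reads per gene. The submitters' processing notes name CASAVA 1.8.2, STAR 2.5.4, HTSeq 0.6.0 and edgeR 3.16.5 and the TAIR10 genome. A deposited table of normalized values was not used. The count table's 5 summary lines, which name no gene, entered neither library sizes nor tests. Genes above 1 CPM in at least 2 libraries were kept, and edgeR 4.0.16 (R 4.3.3, limma 3.58.1) fitted 1 negative binomial model with TMM factors and a quasi-likelihood test to all 32 libraries, with a coefficient per condition and time. FDR is the Benjamini-Hochberg adjusted p over all genes tested in a comparison. The spread is thus shared over 16 groups of 2. DESeq2 1.42.0 was run as an alternative, and the test was checked on simulated counts. Text names the 10 largest log2FC in each direction among called genes of at least 5 CPM on average and no overlap, called list members, and the 5 smallest FDR per direction in the other comparisons. Genes outside this rule were named for their role after their values were seen. The comparison, the gene lists and the tests were chosen with earlier results of these data known. Genes with at most 3 reads in a group are given as reads without a fold. Sequences were read from RefSeq's TAIR10.1 genome by its gene annotation. Alternatives were the FDR alone, a likelihood ratio test, DESeq2 and its size factors, no filter, fits to fewer libraries, a replicate block and leaving out each library.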

Additional observations from a re-analysis of the deposited data

Results flagged for a closer look

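The interaction at 24 h, the log2FC of 30FR over 30WL minus that of 21FR over 21WL, was past the test for EFE (−1.11) and AT4G27300 (−1.48), whose levels are given above.

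The response of 30FR over 21WL differed between 24 h and 1 h for many genes, and the 5 with the smallest FDR in each direction are given here. Those with a smaller log2FC at 24 h were SR30, a serine and arginine rich splicing factor (0.63 at 24 h and 2.03 at 1 h, a difference of −1.40), Hrd1B, a RING protein (0.44 and 2.17, −1.73), UTR1, a UDP-galactose transporter (0.57 and 2.22, −1.65), AT2G29500 (1.92 and 7.46, −5.54) and AT5G11680, annotated as an arabinogalactan protein (0.00 and 1.24, −1.24). Those with a larger log2FC at 24 h were ELF4 (1.22 at 24 h and −1.06 at 1 h, a difference of 2.28), FBA5, a fructose-bisphosphate aldolase (0.61 and −0.95, 1.56), AT2G34190, a permease by its annotation (−0.05 and −1.53, 1.49), AT3G59670, annotated as an elongation factor (−0.21 and −1.49, 1.28), and AT2G46250 (1.79 and 0.57, 1.23).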

How the results depend on the processing

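By FDR alone, 1871 higher and 2410 lower genes passed for 30FR over 21WL, 1914 and 2405 over 21FR, 68 and 268 over 30WL, 1 higher for the interaction, and 537 and 831 for 24 h minus 1 h. With total counts and no scaling factor, chosen after seeing the data, 597 genes were higher over 21WL, 568 higher and 168 lower over 21FR, 1 higher for the interaction, and 548 higher and 148 lower for 24 h minus 1 h. Fitting the compared groups alone gave 150 higher and 122 lower over 21WL, 51 higher over 30WL and 61 higher for 24 h minus 1 h. Negative interactions numbered 13 with a likelihood ratio test, 5 with no filter, 0 with the 24 h libraries alone and 11 with DESeq2, which called 1 positive. Leaving out 1 library gave 198 to 540 higher and 185 to 517 lower over 21WL, 206 to 283 and 145 to 228 over 21FR, 12 to 17 and 39 to 55 over 30WL, 0 to 1 and 0 to 6 for the interaction, and 95 to 217 and 165 to 315 for 24 h minus 1 h. Apart from fewer libraries or a dropped threshold, the cause was not tested. Other settings stayed within 1.5 times: 381 and 356 with the likelihood ratio test, 315 and 322 with DESeq2, 343 and 338 with its size factors, 372 and 345 with no filter, and 370 and 326 with the 24 h libraries alone, all over 21WL. Nothing in the labels says whether a replicate number pairs samples across conditions, and the replicate differences did not decide it. Their correlation was −0.332 between 30FR and 21WL at 24 h and 0.412 between 30WL and 21WL. Over the other pairs of conditions it lay between −0.262 and 0.156. The replicate block gave 354 higher and 336 lower. A block with the numbers crossed, chosen after seeing the data, gave 357 and 334. Of 114 named genes called over 21WL, 64 kept their call under every alternative run, 34 lost it without 21WL replicate 2, 10 without 21WL replicate 1 and 43 under at least 1 alternative that left out no single library (38 with the compared groups alone, 13 with total counts and 5 with DESeq2), and none changed sign. Depth limits the genes with at most 3 reads in a condition, 17 of those called higher and 4 of those called lower, for which no fold is given.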
